A study of Mus musculus with 4 samples.

Results

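The cytosolic ribosomal protein genes were 89 of the 55820 loci in the expression table. They were chosen by symbol: every gene named Rpl, Rps or Rplp with a number and at most a short suffix, plus Rpsa. Of these members, 77 were main protein-coding genes, 46 of the large and 31 of the small ribosomal subunit. A further 5 were expressed paralogs of main genes (Rpl10l, Rpl39l, Rpl3l, Rps27l and Rpl22l1), 1 was the protein-coding gene Rpl7l1, and 6 were pseudogenes with gene-like symbols (Rps4l, Rps3a2, Rps3a3, Rpl6l, Rpl32l and Rps12l1). Rps12l1 had no count in any library, and the other 88 members passed the filter on low counts, as did 20561 loci in all. Fau, Rack1 and Rpl36al also encode ribosomal proteins, but their symbols fall outside the rule and they were kept as a separate list.

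RNA from whole testes of male C57BL/6J mice at postnatal day 10 (P10) was sequenced in 2 libraries labelled control and 2 labelled Mps1sKO. Mps1, listed under the symbol Ttk, encodes a kinase of the spindle assembly checkpoint, and Mps1sKO mice carry floxed Mps1 alleles with a Stra8-Cre transgene, whose recombinase acts in germ cells from early spermatogonia onward. The alleles and Cre status of the control mice are not given in the labels, and the somatic cells of Mps1sKO testes keep Mps1. The 2 libraries of a genotype are described as biological replicates, without saying how many mice each holds, and all p-values measure the spread between them. The libraries held 26819122 and 28607746 counts (control) and 23311689 and 27093849 counts (Mps1sKO), so the library Mps1sKO 1 was the smallest.

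A ribosome is made of ribosomal RNAs and a nearly fixed set of proteins, so the genes are usually expressed together and at high levels. Many of their mRNAs begin with a terminal oligopyrimidine tract (TOP), through which their translation follows growth signals. In mammals a few ribosomal proteins have a paralog with tissue-restricted expression: Rpl10l and Rpl39l are autosomal genes active in male germ cells, where their X-linked parents Rpl10 and Rpl39 are silenced during meiosis, and Rpl3l is best known from striated muscle. At P10 the first germ cells of the mouse testis enter meiotic prophase.

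The short paralog pairs show how the sequencing reads tell a paralog from its parent. Rpl39l (chr16:10170226-10174911, plus strand) and its parent Rpl39 (chrX:37082520-37085402, minus strand) have coding sequences of 156 bases with 85.3% identity. Rps27l (chr9:66946086-66949516, plus strand) and Rps27 (chr3:90212522-90213651, minus strand) have coding sequences of 255 bases with 76.1% identity. Coordinates are on GRCm38 and cover the whole gene, introns included. The spliced coding sequences below come from the GENCODE M21 annotation and read from start to stop codon, with the bases that differ between paralog and parent in capitals, 23 in the first pair and 61 in the second.
Rpl39l: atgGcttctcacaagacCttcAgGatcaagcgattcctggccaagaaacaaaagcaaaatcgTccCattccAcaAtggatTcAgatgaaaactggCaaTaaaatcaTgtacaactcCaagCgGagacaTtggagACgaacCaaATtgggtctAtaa
Rpl39: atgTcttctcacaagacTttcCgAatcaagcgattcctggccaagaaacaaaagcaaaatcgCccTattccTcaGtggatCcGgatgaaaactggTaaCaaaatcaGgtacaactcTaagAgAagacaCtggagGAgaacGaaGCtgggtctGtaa
Rps27l: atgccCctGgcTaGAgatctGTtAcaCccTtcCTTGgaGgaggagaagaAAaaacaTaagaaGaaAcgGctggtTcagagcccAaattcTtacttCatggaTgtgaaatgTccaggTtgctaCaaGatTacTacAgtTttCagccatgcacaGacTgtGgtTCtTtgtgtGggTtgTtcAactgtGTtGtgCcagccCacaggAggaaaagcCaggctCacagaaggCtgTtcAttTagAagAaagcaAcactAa
Rps27: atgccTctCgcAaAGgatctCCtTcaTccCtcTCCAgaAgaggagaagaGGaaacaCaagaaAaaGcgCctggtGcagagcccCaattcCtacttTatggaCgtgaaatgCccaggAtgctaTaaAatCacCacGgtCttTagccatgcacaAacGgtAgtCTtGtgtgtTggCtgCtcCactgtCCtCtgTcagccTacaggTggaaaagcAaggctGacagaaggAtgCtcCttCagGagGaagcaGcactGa
The other pairs were also well separated, with 84.8% identity between Rpl10l and Rpl10, 73.3% between Rpl3l and Rpl3 and 68.2% between Rpl22l1 and Rpl22. Of the 5 paralogs, 4 shared no stretch of 150 bases, the read length, with a transcript of any other gene. The exception was Rpl22l1, with 23.8% of its stretches shared.

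The targeted gene was examined first, as a check of the labels. Ttk (chr9:83834689-83872389) was counted 750 and 940 times in controls against 302 and 326 times in Mps1sKO libraries. Scaled to library sizes adjusted by TMM factors (CPM), this was 30.2 ± 3.35 against 12.6 ± 0.614 (mean ± SD, n = 2 each). The fitted log2 fold change was -1.26 (edgeR quasi-likelihood test, adjusted p = 0.0461). The adjusted p ranged up to 0.224, with the replicate number as a block, and was 0.0504 with DESeq2 size factors, 0.0573 with a minimum of 10 counts and 0.0745 with limma-voom. Log2 fold changes were below 0 for 10 of 10 germ cell markers (median -0.45) and 16 of 16 meiotic prophase markers (median -0.60), and above 0 for 10 of 11 tested Sertoli cell markers (median 0.26), with no gene of these lists at an adjusted p below 0.05. Of the 12 Sertoli markers, Rhox5 alone was at or near 0 counts, and the other markers of these testis cells were counted in every library. Every level below is an average over all cells of the testis, in which fewer cells of a type and less RNA per cell cannot be told apart.

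The main ribosomal protein genes mostly had small log2 fold changes below 0 in Mps1sKO testes, and no single gene passed the test across all loci. Of the 77 main genes, 67 had a log2 fold change below 0 and 10 above 0, against 49.9% of all tested loci below 0. Their median log2 fold change was -0.11, with quartiles of -0.20 and -0.07, against 0.00027 (quartiles -0.16 and 0.14) over all loci tested. The median was the same in the large subunit, with 40 of 46 genes below 0, as in the small subunit, with 27 of 31 below 0 (-0.11 in each). It stayed between -0.13 and -0.11 when the libraries were scaled by DESeq2 size factors, by total counts alone or by TMM factors computed without the ribosomal protein genes.

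No main gene reached an adjusted p below 0.05 with edgeR, in either direction, where 0.0292% of all loci did so as lower and 0.0% as higher. DESeq2 called 0 of the main genes too, and 37 of the 15436 loci to which it gave an adjusted p. With edgeR, 10 main genes had an unadjusted p below 0.05, all lower (5.37% of all loci lower, 3.92% higher). None differed by over 1.5-fold at an unadjusted p under 0.01, against 0.681% of all loci lower and 0.146% higher. Among genes differing by over 1.2-fold at an unadjusted p under 0.05, called the relaxed cut-offs here, 8 main genes were lower and 0 higher, against 4.95% and 3.09% of all loci. These 8 were Rps28, Rpl30, Rpl37, Rpl7a, Rps21, Rpl38, Rpl32 and Rpl35. Both Mps1sKO libraries lay below both control libraries for 41 main genes and above them for 4, against 21.1% and 20.3% of all loci.

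The library Mps1sKO 1 carried more of this difference than Mps1sKO 2. Against the mean of the controls, the main genes had a median log2 difference of -0.20 in Mps1sKO 1 and -0.054 in Mps1sKO 2. Of the 77 genes, 53 were lowest of all libraries in Mps1sKO 1, 15 in Mps1sKO 2, 4 in control 1 and 5 in control 2, while Mps1sKO 1 was the lowest library for 24.9% of all tested loci. The control libraries lay close together, with a median distance of 0.0428 on the log2 scale between them (0.151 over all loci), against 0.152 between the Mps1sKO libraries (0.187 over all loci). Without Mps1sKO 2, the median log2 fold change of the main genes was -0.20, and without Mps1sKO 1 it was -0.053. It was -0.13 without control 2 and -0.11 without control 1.

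**Figure D1:**
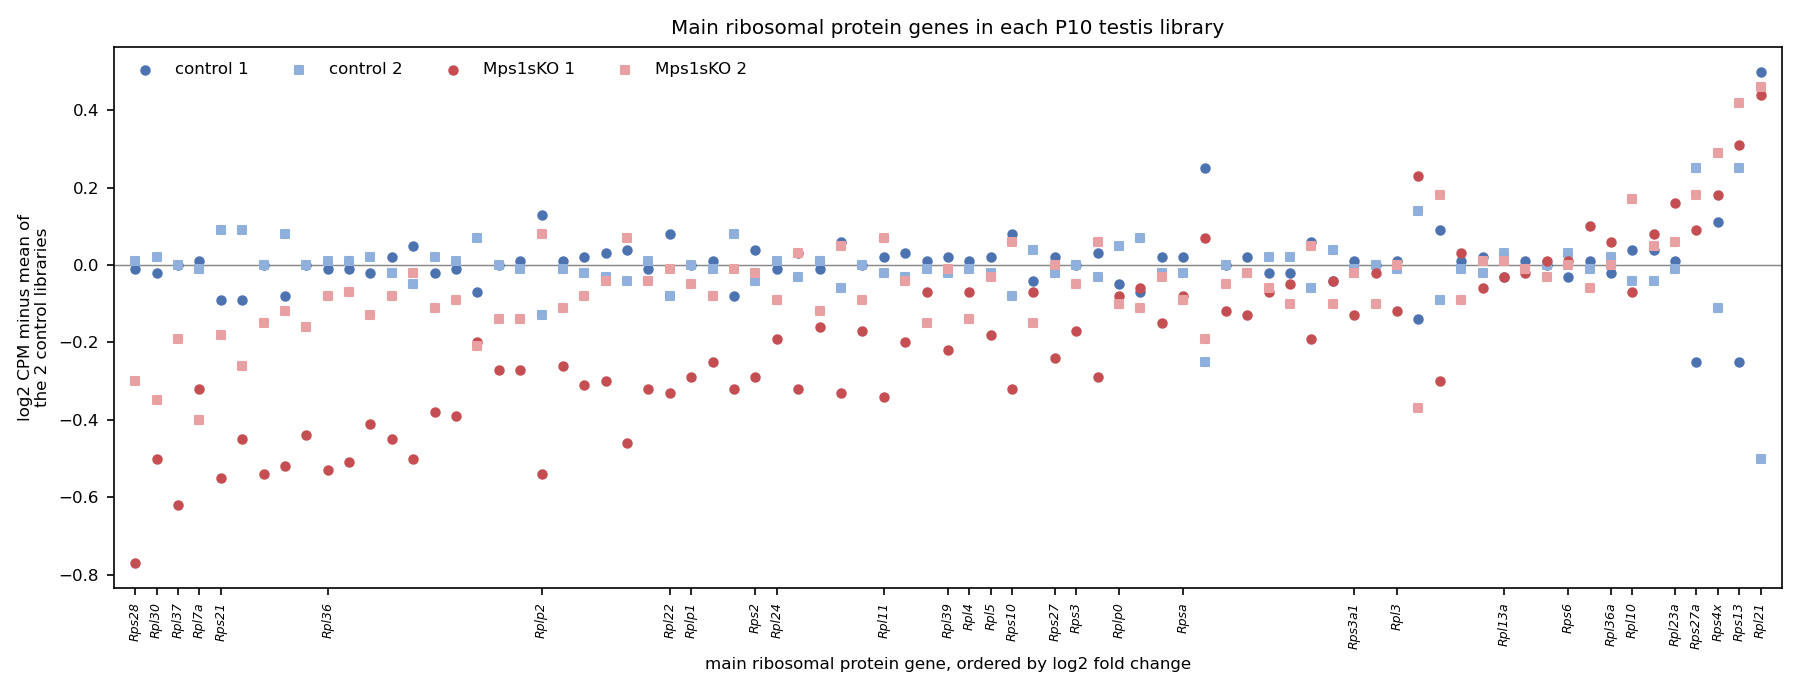
Each of the 77 main ribosomal protein genes (horizontal axis, ordered by log2 fold change, with the genes named by rule labelled) in each of the 4 libraries, as log2 CPM minus the mean of the 2 control libraries (vertical axis). Control points lie near 0 for most genes, and the dark red circles of Mps1sKO 1, which reach -0.77 at Rps28, lie below the light red squares of Mps1sKO 2 for most genes of the left side.

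The share of a library taken by the main genes followed the same order. It was 3.44% and 3.44% of all counts in the control libraries, 2.98% in Mps1sKO 1 and 3.26% in Mps1sKO 2. The difference of the means was -0.314 percentage points (3.44% ± 0.000136 against 3.12% ± 0.2, SD, n = 2 each; two-sided exact permutation p = 0.333, the smallest that 2 against 2 libraries can give). It was -0.455 points without Mps1sKO 2 and -0.173 without Mps1sKO 1. Large subunit genes took 1.97% and 1.95% in controls and 1.70% and 1.85% in Mps1sKO libraries. Small subunit genes took 1.46% and 1.49% in controls and 1.28% and 1.42% in Mps1sKO libraries. Both subunits were thus lowest in Mps1sKO 1, and neither had overlapping groups.

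The lowest of the main genes was Rps28 (chr17:33819027-33824562), a small protein of the small subunit. It had 302 and 306 CPM in controls, 179 in Mps1sKO 1 and 247 in Mps1sKO 2, a log2 fold change of -0.52 (SE 0.144, edgeR adjusted p = 0.494). The groups did not overlap, but the Mps1sKO libraries lay further apart than the controls. Without Mps1sKO 2 its log2 fold change was -0.77, and without Mps1sKO 1 it was -0.30. Rps28 overlaps the opposite-strand gene Kank3 (1963, 1715, 1427 and 1988 counts in control 1, control 2, Mps1sKO 1 and Mps1sKO 2) and, since no strand setting of the counting is given, reads of the overlap cannot be assigned.

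Rpl30 (chr15:34440505-34443640, large subunit) had 337 and 344 CPM in controls, 241 in Mps1sKO 1 and 267 in Mps1sKO 2, a log2 fold change of -0.42 (SE 0.0917, adjusted p = 0.494). Rpl7a (chr2:26910764-26913318, large subunit) had 126 and 124 CPM in controls and 100 and 94.5 in Mps1sKO libraries, a log2 fold change of -0.36 (SE 0.0866, adjusted p = 0.494). These genes stood out among the lowest 5, since their Mps1sKO libraries were nearly as low as each other. For Rpl7a, Mps1sKO 2 was the lowest library. Rpl30 shared 36.1% of its stretches of read length with other genes, and Rpl7a 65.2%. Gm12191, a pseudogene sharing stretches with Rpl30, had 624 and 648 counts in controls, 400 in Mps1sKO 1 and 1148 in Mps1sKO 2. Rpl30-ps10, another, had 163, 148, 145 and 456 in that order. With pseudogenes named after each gene added, the log2 fold change was -0.38 for Rpl30 and -0.33 for Rpl7a. These sums leave out copies with other symbols, such as Gm12191. The part of shared reads in these levels was not tested. Rpl37 (chr15:5116645-5119140, large subunit) had 290 and 291 CPM in controls but 189 in Mps1sKO 1 and 254 in Mps1sKO 2 (log2 fold change -0.39, adjusted p = 0.505). Rps21 (chr2:180257377-180258445, small subunit) had 275 and 313 CPM in controls and 200 and 259 in Mps1sKO libraries (log2 fold change -0.36, adjusted p = 0.515). In both of the latter, the distance between the Mps1sKO libraries exceeded that from Mps1sKO 2 to the nearest control. Without Mps1sKO 1 the log2 fold change was -0.19 for Rpl37 and -0.18 for Rps21, and without Mps1sKO 2 it was -0.62 and -0.56. With no filter on low counts, 390 of the 35262 loci then fitted had an adjusted p below 0.05, against 6 in the main fit. In that unfiltered edgeR fit the adjusted p was 0.000174 for Rps28, 0.00578 for Rpl30, 0.0179 for Rpl37 and 0.0407 for Rps21.

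The promoters of the genes lower at the relaxed cut-offs were read for the pyrimidine-rich start that TOP mRNAs share. RefSeq gave a promoter on GRCm38.p6 for 6 of the 8 genes. Windows from 10 bases before to 15 bases after the annotated start are shown, with any CTTTC in capitals, overlapping ones included, as a description of what the genes hold at their start.
Rps28 (chr17:33824548-33824572, minus strand): cgcgtgcggtctcgcgagagcgaaa
Rpl37 (chr15:5116603-5116627, plus strand): cctgggcggaagcttatccacagga
Rpl7a (chr2:26910797-26910821, plus strand): ctcttCTTTCTTTCtccagcagccg
Rps21 (chr2:180257369-180257393, plus strand): aggacccgccctcctgcccaatagt
Rpl38 (chr11:114668570-114668594, plus strand): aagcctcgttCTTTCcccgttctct
Rpl35 (chr2:39005117-39005141, minus strand): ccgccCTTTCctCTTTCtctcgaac
Within 25 bases each side of the start, CTTTC stood on the coding strand of 17 of the 57 main genes with a promoter (29.8%) and on either strand of 21 (36.8%). Of all 27025 genes with a promoter, 6.60% held it on the coding strand and 12.2% on either strand. Among the 5 paralogs, 1 held it, Rpl39l. A missing match says only that these letters are not in the annotated window, and annotated starts can lie some bases from the start in use.

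The main genes with short coding sequences were lower than those with long ones, above all in Mps1sKO 1. The 24 main genes with at most 400 coding bases had a median log2 fold change of -0.22, and 23 of them were below 0. The 31 genes of over 400 and up to 600 bases had a median of -0.11, and the 22 genes over 600 bases one of -0.078. Of the 8 genes lower at the relaxed cut-offs, 6 fell in the shortest class. The shortest of all, Rpl41 with 78 coding bases, had 724 and 741 CPM in controls, 553 in Mps1sKO 1 and 670 in Mps1sKO 2, without overlap of the groups (log2 fold change -0.26). In Mps1sKO 1 the medians against the control mean were -0.39, -0.25 and -0.08 from the shortest to the longest class, and in Mps1sKO 2 they were -0.11, -0.043 and -0.026.

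Across the 77 main genes, Spearman's rho between coding length and the difference from the control mean was 0.490 in Mps1sKO 1 (Pearson's r on log2 length 0.446) and 0.249 in Mps1sKO 2 (r = 0.193). Between the control libraries (control 2 minus control 1) it was -0.287 (r = -0.147). These are descriptions across genes of the same libraries, and genes are not independent replicates. Other short protein-coding genes were lower in Mps1sKO 1 as well: the 779 tested genes of at most 400 coding bases had medians of -0.12 in Mps1sKO 1 and 0.027 in Mps1sKO 2, while 13469 genes over 600 bases had medians of 0.0094 and 0.0068. Over all 15438 other coding genes, rho was 0.140 in Mps1sKO 1 and -0.0827 in Mps1sKO 2. Mps1sKO 1 thus had lower values for short coding genes outside the family too, and the part of this in the values of the main genes was not tested.

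**Figure D2:**
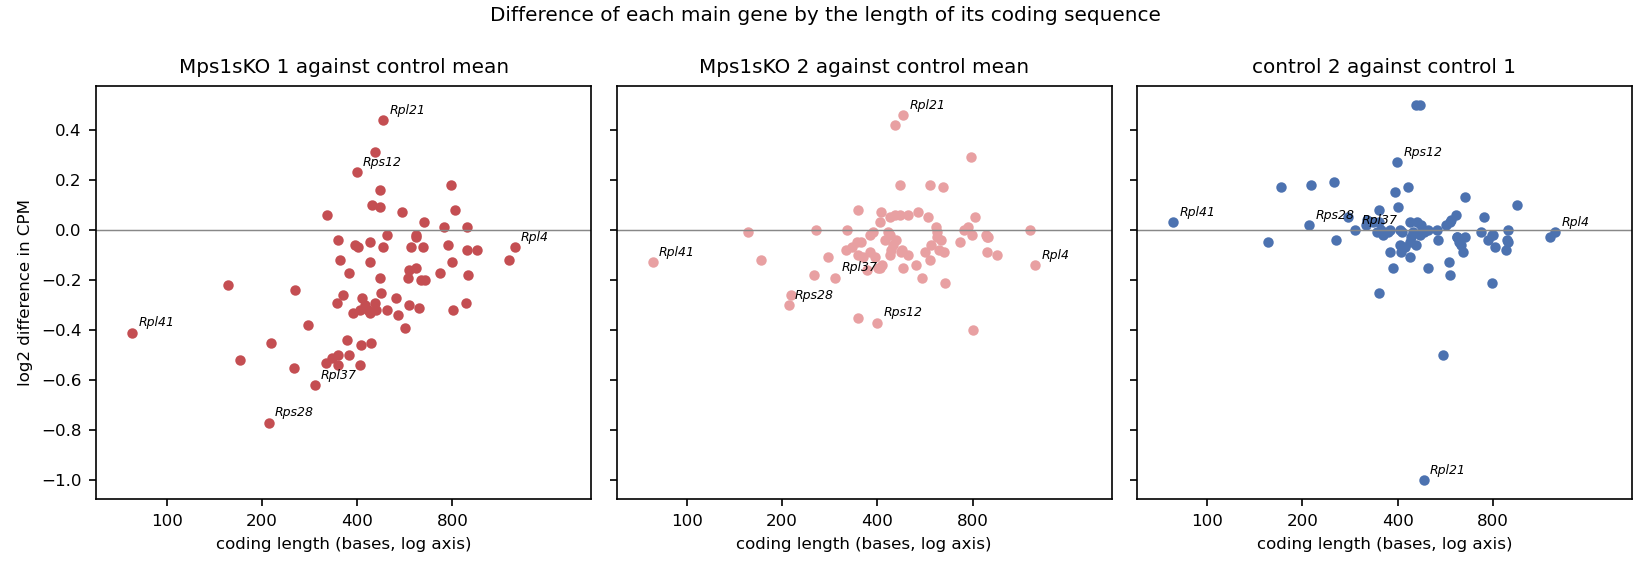
Log2 difference in CPM (vertical axis, shared) of the 77 main genes against coding length in bases (horizontal log axis), for Mps1sKO 1 and Mps1sKO 2 against the control mean and for control 2 against control 1. The points of Mps1sKO 1 rise with length, with medians of -0.39 up to 400 bases and -0.08 over 600 bases, more than those of Mps1sKO 2 (-0.11 and -0.026).

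By length-corrected level (FPKM, fragments scaled to gene length and library size), Rplp1 was the highest main gene and Rpl24 the lowest. The gene length used by the authors can far exceed the main transcript, with 6256 against 1613 bases for Rps24, while both were 499 for Rplp1. The order of the highest genes therefore depends on the length used: Rps24, with a mean of 743 CPM in controls, had 118 FPKM there. Rplp1, which with Rplp0 and Rplp2 forms the stalk that recruits translation factors, had 1620 ± 2.93 FPKM in controls and 1450 ± 175 in Mps1sKO testes (SD, n = 2 each). It was followed by Rps3a1 of the small subunit (783 ± 6.38 and 749 ± 41.5), Rpl36 of the large subunit (690 ± 6.23 and 569 ± 127), Rpl4, which lines the exit tunnel (637 ± 3.5 and 593 ± 19.3), and Rplp0 (607 ± 31.0 and 573 ± 5.52). Levels of Rpl36, Rpl4 and Rplp0 overlapped between libraries, so the order of these genes does not exceed their spread. Their log2 fold changes were -0.16 for Rplp1, -0.07 for Rps3a1, -0.28 for Rpl36, -0.11 for Rpl4 and -0.09 for Rplp0, none with an unadjusted p below 0.05.

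The lowest main genes by level were Rpl24, Rps10 and Rpl13a. Rpl24 had 2.39 and 2.44 FPKM in controls and 2.13 and 2.28 in Mps1sKO libraries, from 67, 73, 51 and 63 counts. Rps10 had 351, 338, 230 and 346 counts, and Rpl13a had 723, 805, 621 and 740. For each of them over 50% of the 150-base stretches of its transcript were shared with other genes (72.5%, 62.6% and 52.7%). They share with read-through genes annotated over the same locus, Gm28037, RPS10-NUDT3 and Gm45713, which are listed at 0 in all libraries, and Rps10-ps2, a pseudogene of Rps10, held 3320, 3466, 2855 and 3254 counts. Their levels are therefore uncertain, and how reads that fit several genes were counted is not given in the sources used here.

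Genes grouped by their place on the ribosome all had small median changes. The stalk genes had log2 fold changes of -0.16 (Rplp1), -0.09 (Rplp0) and -0.20 (Rplp2). Rplp2 had 447 and 375 CPM in controls, 282 in Mps1sKO 1 and 432 in Mps1sKO 2, so that its groups overlapped and without Mps1sKO 1 its log2 fold change was 0.071. Rpl5 and Rpl11, which carry the 5S ribosomal RNA and can bind MDM2 when ribosome assembly fails, had log2 fold changes of -0.11 and -0.12, and without Mps1sKO 1 that of Rpl11 was 0.074. Rps2 and Rps3, at the site of mRNA entry, had -0.15 and -0.11. The 8 exit tunnel genes had a median of -0.092, and 1 of them, Rpl35, was lower at the relaxed cut-offs. Rpsa, which is also known as a laminin receptor, had 866 and 841 CPM in controls and 806 and 802 in Mps1sKO libraries (log2 fold change -0.09). Rps6, whose protein is phosphorylated in response to growth signals, had 550 and 570 CPM in controls and 565 and 561 in Mps1sKO libraries. Its groups overlapped, and its log2 fold change was 0.01, or -0.013 when libraries were scaled by total counts alone.

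Of the 4 X-linked main genes, 3 had log2 fold changes above 0 and 1 below 0. Rps4x (chrX:102184941-102189394) had 408 and 353 CPM in controls and 430 and 465 in Mps1sKO libraries, a log2 fold change of 0.23 (SE 0.102, adjusted p = 0.542). Its groups did not overlap, and the log2 fold change was 0.34 without control 1 and 0.13 without control 2. Rpl10 (0.05) and Rpl36a (0.03) were also above 0, with overlapping groups, and without Mps1sKO 2 the value of Rpl10 was -0.075. Rpl39 was below 0 (-0.11). The 4 genes had a median of 0.042, against -0.12 for the 73 autosomal main genes, of which 66 were below 0. With 4 genes and no member called, the values are given as a description.

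Of the 5 main genes with the highest log2 fold changes, Rpl21, Rps13 and Rps27a were among the 4 main genes whose control libraries differed by more than 0.3 on the log2 scale. Rpl21 (chr5:146832890-146837032) had 133 and 66.3 CPM in controls and 127 and 129 in Mps1sKO libraries (log2 fold change 0.37, adjusted p = 0.684). Only control 2 stood apart: without it the log2 fold change was -0.051, and without control 1 it was 0.95. Rps13 (chr7:116331505-116334195) had 138 and 194 CPM in controls and 202 and 219 in Mps1sKO libraries (log2 fold change 0.34, adjusted p = 0.551), with control 1 low and no overlap of the groups. It was 0.11 without control 1 and 0.61 without control 2. Rps27a, which encodes ubiquitin fused to a small subunit protein, had 291 and 411 CPM in controls and 369 and 391 in Mps1sKO libraries (log2 fold change 0.11), and without control 1 it was -0.12. The last of the highest 5, Rpl23a of the exit tunnel, had 273 and 269 CPM in controls and 303 and 283 in Mps1sKO libraries (log2 fold change 0.11, adjusted p = 0.701).

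Processed pseudogenes that share stretches with these genes were counted beside them. Rps13-ps1, which holds 150-base stretches identical to Rps13, had 3427 and 1733 counts in controls and 990 and 1536 in Mps1sKO libraries, high in control 1 where Rps13 itself was low. With the pseudogenes named after each gene added to it, the log2 fold change was 0.01 for Rps13, 0.13 for Rpl21 and 0.11 for Rps27a. The sum for Rps13 and its 7 named pseudogenes was 7228 and 7575 counts in controls, so that the gap between control libraries closed from 0.50 to -0.03 on the log2 scale (control 2 minus control 1). For Rpl21 the gap remained at -0.42. Sharing was common in the family: 23 of the 77 main genes shared over 50% of their 150-base stretches with another gene, 9 shared none, and the median share was 29.2%. The median log2 fold change was -0.11 among the 9 that shared none and -0.067 among the 23 that shared over 50%, and it was -0.12 over the main genes once named pseudogenes were added. All pseudogenes named after members took 0.180% and 0.177% of counts in controls and 0.162% and 0.165% in Mps1sKO libraries.

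Of the 5 paralogs, 3 passed the relaxed cut-offs as lower, Rpl10l, Rpl39l and Rpl3l, against 4.95% of all loci. None had an adjusted p below 0.05, and all 5 log2 fold changes were below 0, with a median of -0.37 beside -0.11 in the main genes, a difference that was not tested as such. Both Mps1sKO libraries lay below both controls for 4 of them, all but Rpl22l1, against 21.1% of all loci. None of the 5 parent genes had groups without overlap, and their log2 fold changes were 0.05 for Rpl10, -0.11 for Rpl39, -0.06 for Rpl3, -0.11 for Rps27 and -0.16 for Rpl22.

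Rpl39l was counted 982 and 1045 times in controls, 562 times in Mps1sKO 1 and 717 times in Mps1sKO 2, or 36.5, 36.2, 24.3 and 26.8 CPM. Its log2 fold change was -0.51 (SE 0.104, unadjusted p = 0.00139, adjusted p = 0.494, edgeR). With no filter on low counts the edgeR adjusted p was 0.0131, in a fit that called 390 of 35262 loci. The control libraries were nearly equal and both Mps1sKO libraries lay well below them. Its parent Rpl39 had 227 and 219 CPM in controls and 191 and 222 in Mps1sKO libraries, with overlapping groups.

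Rpl10l (chr12:66283379-66284401) had 1109 and 1255 counts in controls and 815 and 812 in Mps1sKO libraries, or 41.2, 43.5, 35.2 and 30.3 CPM. Its log2 fold change was -0.37 (SE 0.11, adjusted p = 0.494). Mps1sKO 2 was the lowest library for Rpl10l, unlike for most main genes. Its parent Rpl10 had 363 and 342 CPM in controls and 334 and 396 in Mps1sKO libraries, and 90.9% of its 150-base stretches were shared with other loci.

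Rpl3l (chr17:24727820-24736143) was rare, with 58 and 71 counts in controls and 26 and 38 in Mps1sKO libraries, or 2.15, 2.46, 1.12 and 1.42 CPM. The log2 fold change was -0.85 (SE 0.256, adjusted p = 0.494), without overlap of the groups. Striated muscle markers were counted at levels like that of Rpl3l, with 54, 71, 39 and 78 counts of Tnnt3 in control 1, control 2, Mps1sKO 1 and Mps1sKO 2. The summed level of 7 genes was between 6.5 and 9.15 CPM (8.24 and 8.28 in Mps1sKO libraries), with a median log2 fold change of 0.16 over 6 tested genes. Their part in the value of Rpl3l was not tested. Rpl3 itself had 747 and 733 CPM in controls and 680 and 740 in Mps1sKO libraries.

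Rps27l, known as a target of p53, and Rpl22l1 (chr3:28805436-28807424), which can stand in for Rpl22, had smaller differences. Rps27l had 94.0 and 110 CPM in controls and 84.7 and 93.4 in Mps1sKO libraries (log2 fold change -0.19, adjusted p = 0.608). Rpl22l1 had 50.5 and 59.5 CPM in controls and 41.8 and 51.4 in Mps1sKO libraries (log2 fold change -0.24, adjusted p = 0.604). For Rps27l the groups were just apart, and for Rpl22l1 they overlapped. With 1 library left out, the log2 fold change ranged from -0.30 (without control 1) to -0.079 (without control 2) for Rps27l, and from -0.40 (without Mps1sKO 2) to -0.10 (without Mps1sKO 1) for Rpl22l1. The parent Rps27 shared 98.0% of its 150-base stretches with other loci, among them Rps27rt, which had 2399 and 3167 counts in controls and 1887 and 1720 in Mps1sKO libraries.

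The ratio of each paralog to its parent does not depend on how libraries are scaled. Rpl39l had 161 and 165 counts per 1000 counts of Rpl39 in controls and 127 and 121 in Mps1sKO libraries, a log2 difference of -0.40. Rpl10l had 113 and 127 per 1000 counts of Rpl10 in controls and 105 and 76.4 in Mps1sKO libraries, a log2 difference of -0.42 that was -0.65 without Mps1sKO 1 and -0.19 without Mps1sKO 2. Rpl3l had 2.88 and 3.36 per 1000 counts of Rpl3 in controls and 1.65 and 1.92 in Mps1sKO libraries, a log2 difference of -0.78. The groups did not overlap in these 3 pairs, each with a two-sided exact permutation p of 0.333, the smallest possible here, and an adjusted p of 0.555 over the 5 pairs. The ratio of Rps27l to Rps27 differed by -0.07 and that of Rpl22l1 to Rpl22 by -0.08, both within the spread of the control libraries (exact permutation p = 1.0). Without control 2 these became 0.062 and 0.12.

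**Figure D3:**
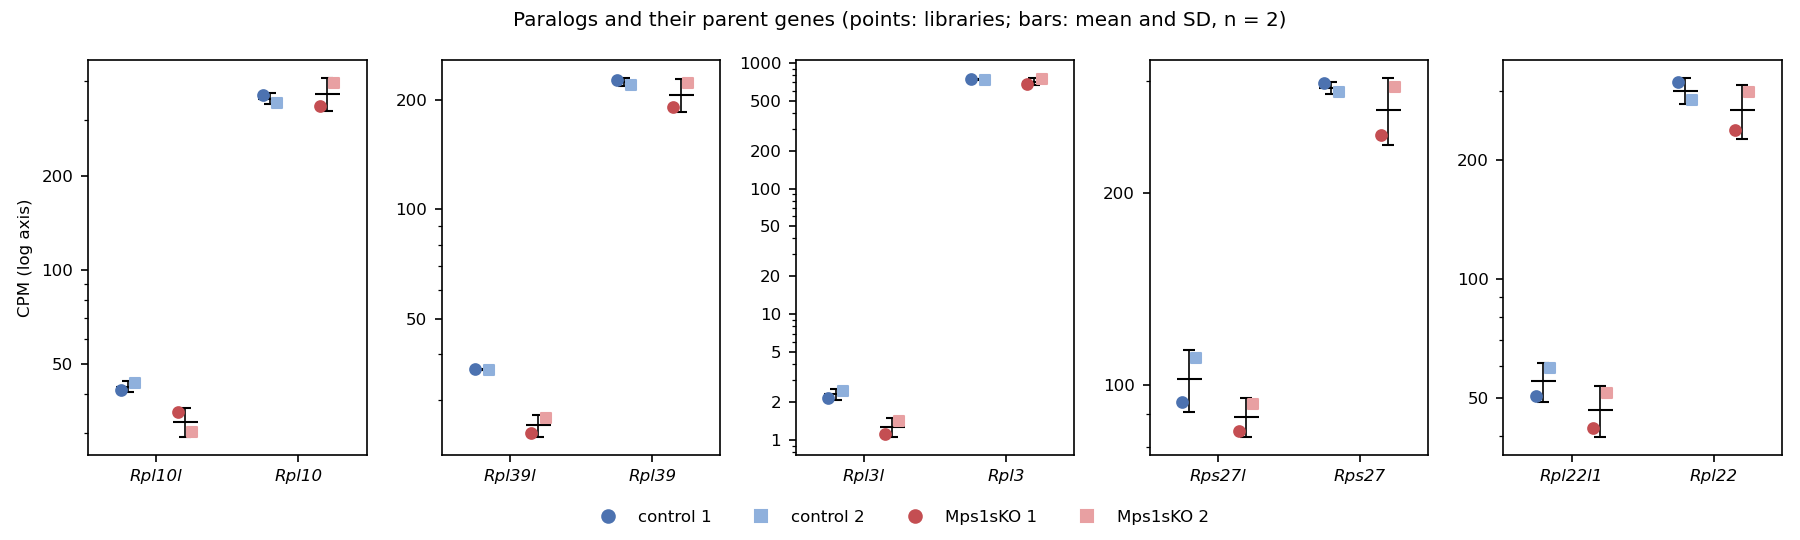
CPM on a log axis of the 5 paralogs and their parent genes, 1 panel a pair, with a point for each library (blue control, red Mps1sKO) and bars for the mean and SD (n = 2). Rpl10l, Rpl39l and Rpl3l have both Mps1sKO libraries below both control libraries, and the parents have overlapping groups.

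The summed level of the 10 germ cell markers was 1460 and 1730 CPM in controls and 1310 and 1030 in Mps1sKO 1 and 2, and that of the 16 meiotic prophase markers 717 and 928 against 602 and 501. The 12 Sertoli markers summed to 6920 and 7070 CPM in controls and 8630 and 8290 in Mps1sKO libraries. Germ cell markers were thus lowest in Mps1sKO 2, as Rpl10l was, while the main genes and Rpl39l were lowest in Mps1sKO 1. The part of these marker levels in the values of the paralogs or main genes was not tested.

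The remaining 7 members had small differences or few counts. Rpl7l1, a protein-coding relative of Rpl7, had 128 and 123 CPM in controls and 121 and 128 in Mps1sKO libraries (log2 fold change -0.01). The most abundant pseudogene was Rps4l, with 132 and 121 CPM in controls and 131 and 139 in Mps1sKO libraries (0.10). Rps3a2 (-0.10), Rps3a3 (-0.01) and Rpl6l (-0.15) lay between 4.72 and 22.6 CPM in every library, and Rpl32l had 14, 11, 5 and 11 counts.

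Other genes of ribosome making and use are given from lists of their own. Fau, which encodes a small subunit protein fused to a ubiquitin-like protein, had 374 and 377 CPM in controls and 273 and 344 in Mps1sKO libraries (log2 fold change -0.28, adjusted p = 0.529), lower at the relaxed cut-offs, while Rack1 had a log2 fold change of 0.00 and Rpl36al, with few counts, one of 0.23. In a list of 19 other genes with TOP mRNAs, such as translation factors, 12 were below 0 with a median of -0.021, and none passed the relaxed cut-offs. In a list of 42 ribosome biogenesis genes, 32 were below 0 with a median of -0.085, and 1 was lower at these cut-offs, Utp4. Of the 80 tested loci with symbols of mitochondrial ribosomal proteins, 52 were below 0 with a median of -0.06. They include the pseudogenes Mrpl48-ps, Mrpl23-ps1, Mrps36-ps1 and Mrps36-ps2. At these cut-offs 1 was higher, Mrpl36 (log2 fold change 0.31, adjusted p = 0.494). In Mps1sKO 1 the TOP genes had a median of -0.042 against the control mean and in Mps1sKO 2 one of -0.028, so the gap between the Mps1sKO libraries seen in the main genes was smaller there. The mitochondrial list had medians of -0.086 in Mps1sKO 1 and -0.0015 in Mps1sKO 2, a gap in the same direction. The ribosome biogenesis list had -0.052 and -0.11, the reverse order.

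**Figure D4:**
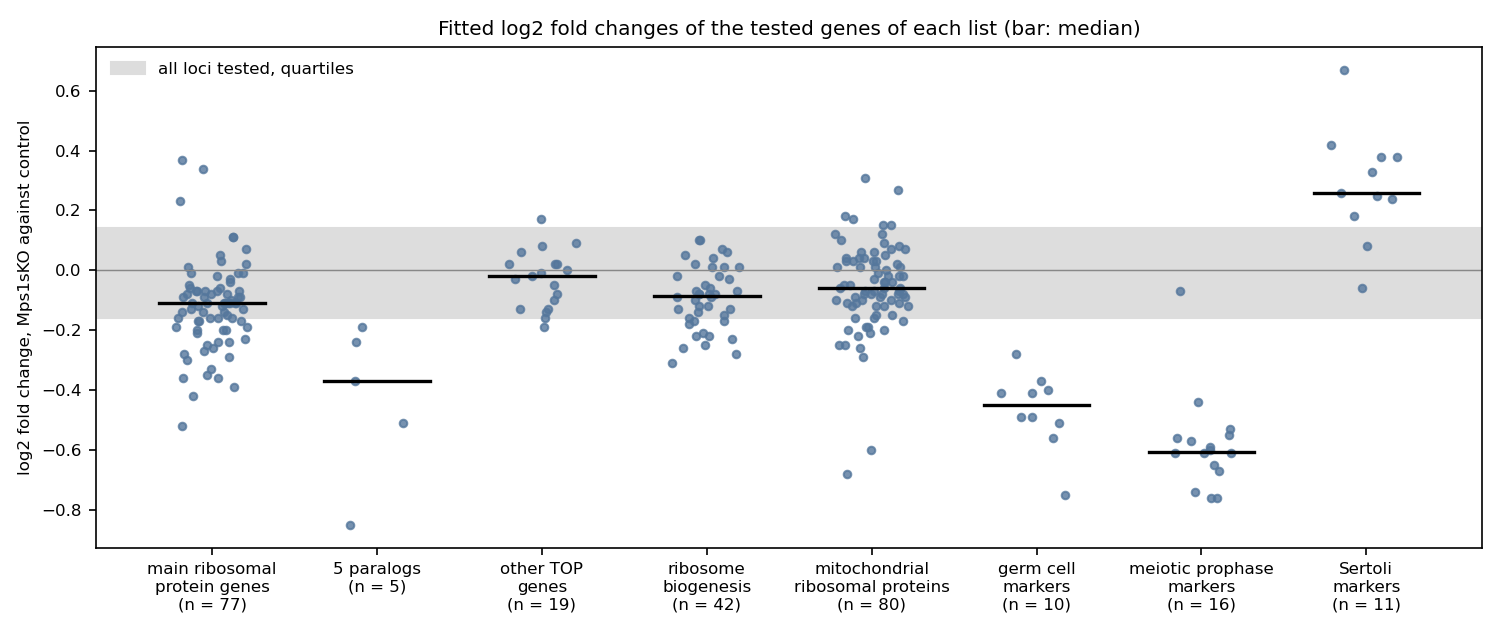
Fitted log2 fold change (vertical axis, Mps1sKO against control) of each tested gene of 8 lists, with a bar at the median and a grey band for the quartiles of all 20561 loci tested (-0.16 to 0.14). The main ribosomal protein genes have a median of -0.11, the 5 paralogs of -0.37, other TOP genes of -0.021, germ cell markers of -0.45 and Sertoli markers of 0.26.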

How the data were processed

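mRNA of whole P10 testes was sequenced as paired reads of 150 bases. According to the submitters' processing notes, the authors used HISAT2 2.0.5, featureCounts and DESeq2 1.16.1 with build mm10. The annotation, the strand setting and the treatment of reads that match several genes are not given in the sources used here. The deposited table holds raw read counts per gene, and FPKM that the authors computed from them by scaling to gene length and library size. No column of another sample was present.

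Counts were fitted for all loci with edgeR 4.0.16 (R 4.3.3; filterByExpr, TMM, quasi-likelihood test, Benjamini-Hochberg adjustment over 20561 loci), a script first tested on simulated data. CPM are counts scaled to the library total. The ranking of main genes by level used FPKM. Ratios of paralog to parent used raw counts, and pseudogene levels and marker sums used CPM, without a correction for length. DESeq2 1.42.0, limma 3.58.1 and the other alternatives served as checks. Ratios used a pseudocount of 1 count and exact permutation tests (scipy 1.17.1). The mean FPKM and the SD are over 2 libraries. Coordinates, coding lengths and transcript stretches come from GENCODE M21 on GRCm38, the build of mm10, where all 89 members had the coordinates of the deposited table. RefSeq gave a promoter for 64 members, and the first entry of a symbol was used.

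The genes named were the paralogs and their parents, the 5 main genes lowest and the 5 highest by log2 fold change, the 5 highest and 3 lowest by FPKM, and fixed groups by role. Other named genes were chosen after their values were seen. Results of a few genes and of 1 list that holds them are not reported here. The members, lists and rules were chosen with earlier results of these data known. Libraries with the same number did not deviate together (correlation of deviations -0.19), so they were not treated as pairs. With 2 libraries a group, both numbers give the same value by construction. A count of 3 corresponds to 0.105 to 0.129 CPM, and intervals on counting error were not needed at the counts reported.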

Additional observations from a re-analysis of the deposited data

How the results depend on the processing

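With 2 libraries a group, no exact permutation test can fall below 0.333, and single libraries decided several values. The median of the main genes stayed below 0 under each alternative run, and leaving out 1 library gave -0.20 to -0.053. The number of main genes with an adjusted p below 0.05, 0 in the main analysis, was 4 with no filter on low counts and 0 to 1 with 1 library left out. Past the 1.5-fold cut-offs, leaving out 1 library gave 0 to 2 lower and 0 to 1 higher. At the relaxed cut-offs it gave 4 to 32 lower and 0 to 2 higher. There, higher genes numbered 1 with DESeq2, 1 with limma-voom and 2 with no filter. Rpl39l had a log2 fold change of -0.51 with no filter and then an adjusted p of 0.0131. The share of the main genes differed by -0.589 percentage points in summed FPKM. The cause of these shifts was not tested.

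With the replicate number as a block, the relaxed cut-offs gave 8 main genes lower and 1 higher, and the share of all loci is not given. Ttk then had an adjusted p of 0.224. No other call named here changed with the block. Since the correlation of deviations was -0.19, the crossed pairing was added after seeing the data. It called 4 main genes, and 550 of all 20561 loci. At the relaxed cut-offs it gave 13 main genes lower and 2 higher, and the share of all loci there is not given.

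Leaving out 1 library turned the direction of small values, with ranges of -0.075 to 0.17 for Rpl10, -0.12 to 0.0015 for Rpl3, -0.24 to 0.0038 for Rps27, -0.12 to 0.39 for Rps27a, -0.051 to 0.95 for Rpl21, -0.32 to 0.062 for Rps10, -0.038 to 0.018 for Rpl13a (0.013 without Mps1sKO 1), -0.54 to 0.071 for Rplp2, -0.34 to 0.074 for Rpl11 and -0.02 to 0.033 for Rps6 (-0.013 when scaled by total counts alone). The ratio to the parent ranged from -0.21 to 0.062 for Rps27l and from -0.27 to 0.12 for Rpl22l1. Rpl7l1 (-0.05 to 0.02) and Rps3a3 (-0.10 to 0.09) also turned. The other 4 pseudogenes tested and the other genes named by the rule, the 5 paralogs included, kept their direction with 1 library left out. Several values differed between leaving out Mps1sKO 1 and leaving out Mps1sKO 2, as for Rpl36 (-0.075 and -0.53) and Rplp1 (-0.047 and -0.29).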
